A study of Mus musculus with 4 samples.

Results

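The 5 canonical Notch ligands, the 4 Notch receptors and the non-canonical ligand Dlk1 were followed in RNA sequencing counts of 4 libraries labelled mouse breast cancer-associated fibroblasts. The members were chosen by gene name, and all 10 were found among the 54532 genes of the deposited tables. The irradiated group comprised 2 libraries, A and B, from Dll1 mcherry+ tumours of MMTV-PyMT mice on the C57BL/6 strain, given 6 Gy of targeted radiation that one label places at day 6. The unirradiated group comprised 2 libraries, A and B, of the same reporter, tumour model and strain without radiation, titled as day 6 controls. In this model the mouse mammary tumour virus promoter drives the polyoma middle T oncogene in mammary epithelium. The tumours of both groups carried the Dll1-mCherry reporter, and the labels do not say how that reporter was built or which fraction of the digested tumour was sequenced. The labels give A and B no animal or culture of their own, so p-values here reflect a spread that could be technical. No label names a batch, and a batch that followed the groups cannot be told apart from the radiation.

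Notch signalling passes between touching cells. A Delta or Jagged ligand on one cell pulls on a Notch receptor on its neighbour, proteases then free the receptor's intracellular domain, and that domain enters the nucleus and joins the DNA-binding protein RBPJ to switch on genes such as those of the HES and HEY families. In the mammary gland Dll1 is known from a population of basal epithelial stem cells, Notch1 and Notch2 from both epithelial and stromal cells, Notch3 from vascular mural cells and luminal progenitors, and Dll4 and Notch4 from endothelium.

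Dll1, Notch2, Notch3 and Jag1 were higher in the irradiated libraries, Jag2 and Notch1 were lower, and Dll3, Dll4 and Notch4 did not pass the test. Dlk1 fell below the filter on low counts and was not tested. Among the tested members Dll1 had the highest fold change, at 2.12, followed by Notch2 at 2.04-fold and Notch3 at 1.82-fold. Across all 15961 tested genes 66.4% were called in either direction, 33.9% higher and 32.5% lower, where a call means a Benjamini-Hochberg adjusted p below 0.05 in the quasi-likelihood test of edgeR. A share of 6 called among the 9 tested members is therefore near the background and says nothing particular about this family. Against a change of at least 1.5-fold 3 members were higher and 0 lower, beside 23.7% of all tested genes, 12.7% higher and 11.0% lower. DESeq2 called 4 members higher and 1 lower, beside 40.5% of the 19531 genes to which it gave an adjusted p, 23.0% higher and 17.5% lower. With a trend of expression with gene length and GC content removed, 4 members were higher and 2 lower, beside 63.6% of all tested genes, 29.9% higher and 33.7% lower. The median log2 fold change was 0.14 over the tested members and -0.00417 over all tested genes. The first of these is the value of Dll3, which had few counts, and it was 0.14 without irradiated A, 0.46 without irradiated B, 0.24 without unirradiated A and 0.58 without unirradiated B.

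Sequences upstream of the 3 members whose rise also passed a test against a change of at least 1.5-fold are shown. These members were picked by that result, which 12.7% of all tested genes shared, so their common direction follows from the choice. Each window runs from 250 bases before to 50 bases after a RefSeq transcription start on GRCm38.p6, read 5′ to 3′ on the strand of the gene, and Dll1 has 2 such starts. Capitals mark matches to the N box CACNAG, a motif bound by HES repressors, or to its reverse complement CTNGTG. The windows lie at chr17:15375774-15376073 and chr17:15376883-15377182 (both minus strand) for Dll1, at chr3:98013288-98013587 (plus strand) for Notch2 and at chr17:32166841-32167140 (minus strand) for Notch3.
Dll1, start within the gene: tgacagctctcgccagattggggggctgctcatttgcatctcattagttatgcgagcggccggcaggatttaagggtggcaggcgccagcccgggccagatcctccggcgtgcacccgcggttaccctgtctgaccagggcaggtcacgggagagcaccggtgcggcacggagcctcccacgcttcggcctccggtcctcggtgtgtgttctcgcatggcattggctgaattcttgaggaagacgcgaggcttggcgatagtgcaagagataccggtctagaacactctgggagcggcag
Dll1, outer start: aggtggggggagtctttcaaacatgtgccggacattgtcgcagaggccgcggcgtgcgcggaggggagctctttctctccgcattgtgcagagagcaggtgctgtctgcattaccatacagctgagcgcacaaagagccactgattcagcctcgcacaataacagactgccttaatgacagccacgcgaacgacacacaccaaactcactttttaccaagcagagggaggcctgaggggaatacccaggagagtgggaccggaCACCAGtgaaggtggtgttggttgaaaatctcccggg
Notch2: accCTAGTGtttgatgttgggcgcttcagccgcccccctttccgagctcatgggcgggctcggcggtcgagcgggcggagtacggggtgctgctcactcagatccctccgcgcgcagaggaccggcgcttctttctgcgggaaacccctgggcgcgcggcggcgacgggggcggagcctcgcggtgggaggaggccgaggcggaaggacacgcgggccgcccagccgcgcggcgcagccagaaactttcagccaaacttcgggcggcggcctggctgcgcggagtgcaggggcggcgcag
Notch3: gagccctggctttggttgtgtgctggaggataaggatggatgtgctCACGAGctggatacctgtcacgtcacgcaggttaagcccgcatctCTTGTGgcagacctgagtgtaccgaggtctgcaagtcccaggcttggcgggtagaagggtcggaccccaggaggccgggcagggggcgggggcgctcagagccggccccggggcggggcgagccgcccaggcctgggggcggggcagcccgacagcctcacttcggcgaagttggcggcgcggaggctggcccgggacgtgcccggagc
The outer Dll1 start had 1 match, whose first base lay at position 14 after the start, Notch2 had 1 match at position -247 and Notch3 had 2, at -204 and -159. The N box was present in 5 of the 11 windows of the members and in 42.5% of all 32851 RefSeq windows of this length. It was thus not confined to the members shown. Notch1, called lower, had 3 matches, of which those at -3 and -1 overlapped, and Dll4, not called, had 1. Whether any match bears on the level of its gene was not tested. The RBPJ core GTGGGAA, or TTCCCAC on the other strand, was in 0 of the 11 windows and in 6.38% of all windows. GC content was 62.7% and 56.3% in the windows of Dll1, 73.0% in that of Notch2 and 70.0% in that of Notch3.

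Total counts ranged from 15817969 to 23763830 in the irradiated and from 13011489 to 17569515 in the unirradiated libraries, so 1 count was worth between 0.0421 and 0.0769 CPM, the usual unit of counts relative to library total. Levels below are CPM after scaling of the totals by the trimmed mean of M-values (TMM). Transcripts typical of several cell types were present in the libraries labelled as fibroblasts. The luminal epithelial markers Epcam and Krt8 were at 543 and 1310 CPM per kilobase in the irradiated and at 594 and 1296 CPM per kilobase in the unirradiated group. Pdgfra, whose product the antibody used on these cells detects, was at 2.37 and 0.557 CPM per kilobase in the irradiated and unirradiated groups. Levels varied widely within both lists. In the same order the fibroblast marker Col1a1 was at 93.8 and 28.1 and the luminal marker Pgr at 0.846 and 0.0469 CPM per kilobase. Of the 12 fibroblast markers 9 were higher and 1 lower. Their summed level was 1719 to 1735 CPM in the irradiated against 551 to 587 CPM in the unirradiated libraries. The collagen genes Col1a1, Col3a1 and Col1a2 made up most of that sum, at 613, 503 and 355 CPM in irradiated A and 188, 129 and 130 CPM in unirradiated A. The lower marker was Fbln1 (log2 fold change -0.61), and Thy1 (0.03) and Pdgfrb (0.15) were not called. Of 10 macrophage markers 9 were higher and 0 lower, with sums of 751 to 754 against 291.2 to 291.5 CPM. Beside these and the later marker counts, 33.9% of all tested genes were higher and 32.5% lower. In bulk samples, fewer cells of a type and less RNA per cell cannot be told apart. The part that such marker differences play in the values of the Notch genes was not tested.

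Dll1 encodes the Delta-like ligand after which the reporter of these tumours is named. It lies on chromosome 17 from 15367354 to 15376872 (mm10, minus strand), and its longest coding transcript has 11 exons. It was at 60.4 and 61.1 CPM in irradiated A and B, against 31.2 and 25.5 CPM in unirradiated A and B. Both irradiated libraries stood above both unirradiated ones, and the unirradiated pair was the less even. The groups did not overlap for 82.5% of all tested genes, and 28.55% of all called genes changed by more than Dll1 in either direction. The log2 fold change was 1.08 (SE 0.0801, adjusted p = 6.16e-19, edgeR), and the adjusted p against a change of at least 1.5-fold was 5.20e-08. It stayed between 0.97 and 1.255 when single libraries were left out. The long noncoding gene A930024N18Rik overlaps the 5′ end of Dll1 on the opposite strand, and the libraries did not keep strand. It had 85 and 100 counts in irradiated A and B and 48 and 66 counts in unirradiated A and B, against 1004 and 1514 counts and 523 and 315 counts of Dll1 in the same order. Luminal epithelial markers summed to 7645 and 7931 CPM in the irradiated and 8101 and 8109 CPM in the unirradiated libraries, with 5 of 10 higher and 3 lower, and of 8 basal and myoepithelial markers 5 were higher and 1 lower. The 5 higher basal markers were the contractile genes Acta2 (log2 fold change 2.11), Myh11 (1.36) and Cnn1 (1.15), the keratin gene Krt17 (1.07) and the oxytocin receptor gene Oxtr (0.98). The lower one was the keratin gene Krt5 (-1.48), and Krt14 (-0.11) and Trp63 (0.07) were not called.

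**Figure D1:**
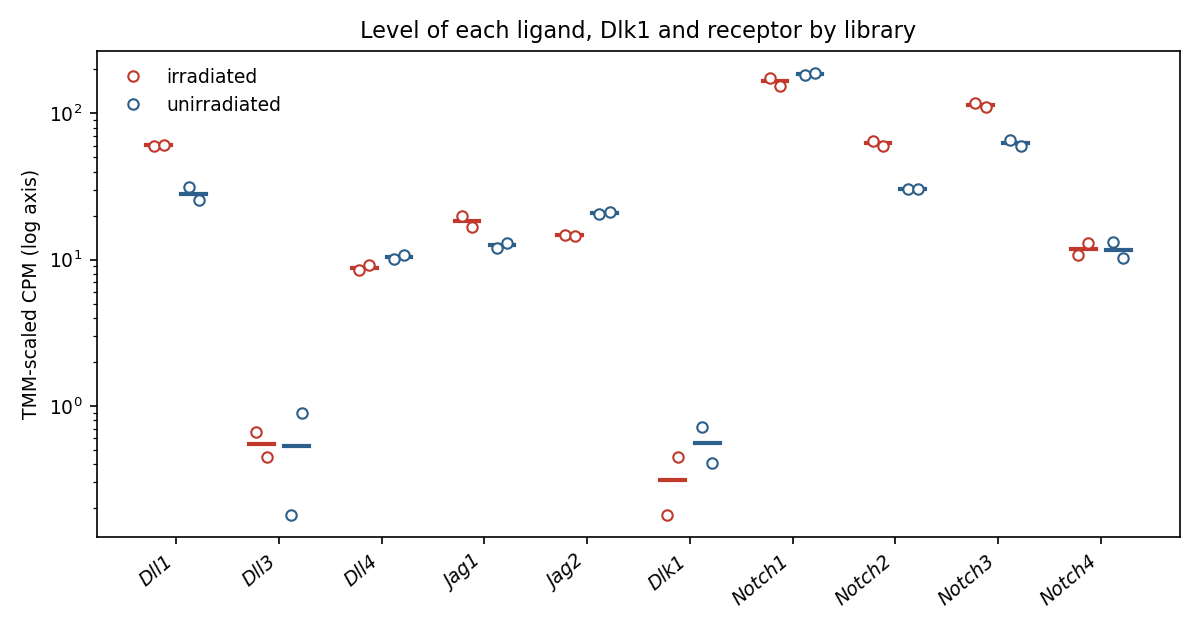
Level of each of the 10 genes in each library, as TMM-scaled CPM on a log axis, with irradiated libraries in red to the left of unirradiated libraries in blue; circles are libraries and bars are group means (n = 2). Dll1, Notch2 and Notch3 are higher in both irradiated libraries, whereas the groups overlap for Dll3, Dlk1 and Notch4. Over all tested genes the groups do not overlap for 82.5%.

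Jag1 and Jag2, the Jagged ligands, moved in opposite directions. Jag1 lies on chromosome 2 from 137081456 to 137116644 and was at 19.8 and 16.7 CPM in irradiated A and B, against 12.1 and 12.9 CPM in unirradiated A and B. The groups did not overlap, as for 82.5% of all tested genes, with irradiated A the highest. The log2 fold change of Jag1 was 0.53 (SE 0.125, adjusted p = 1.72e-04, edgeR). Jag2, on chromosome 12 from 112907819 to 112929776, was at 14.7 and 14.6 CPM in irradiated and 20.5 and 21.3 CPM in unirradiated libraries. Both pairs were tight, and the log2 fold change was -0.51 (SE 0.113, adjusted p = 7.90e-05, edgeR). Neither change passed the test against 1.5-fold. With the length and GC trend removed, the values became 0.33 for Jag1 (adjusted p = 0.0169, edgeR) and -0.80 for Jag2 (adjusted p = 1.74e-08, edgeR).

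Dll4, a ligand best known from sprouting vessels (chromosome 2, 119325784 to 119335962), was at 8.48 and 9.16 CPM in irradiated and 10.1 and 10.8 CPM in unirradiated libraries. The groups did not overlap, as was the case for 82.5% of all tested genes, but the log2 fold change of -0.23 did not pass the test (95% interval -0.53 to 0.07, adjusted p = 0.177, edgeR). Of 10 endothelial markers 9 were higher and 0 lower in the same libraries, with sums of 200.6 and 190.2 CPM in irradiated and 92.2 and 94.1 CPM in unirradiated A and B. Dll3, a ligand that in mouse acts inside the cell on Notch signalling during somite formation (chromosome 7, 28293553 to 28302238), was close to the limit of detection with 11 and 11 counts in irradiated and 3 and 11 counts in unirradiated libraries. Its fitted log2 fold change was 0.14 with a 95% interval from -1.11 to 1.39 (adjusted p = 0.851, edgeR), so no difference was detectable at this depth. Leaving out unirradiated A turned it to -0.74 and leaving out irradiated A to -0.10, while it was 1.54 without unirradiated B and 0.46 without irradiated B.

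Dlk1, a transmembrane protein that lacks the domain with which Delta ligands bind Notch and that is known as an inhibitor of adipocyte differentiation (chromosome 12, 109452823 to 109463336), had 3 and 11 counts in irradiated and 12 and 5 counts in unirradiated libraries. The groups overlapped. The scaled ratio of summed counts was 0.579, with a 95% interval of 0.264 to 1.248 (exact binomial, counting error only), so no difference was detectable at this depth.

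The receptors Notch2 and Notch3 were higher in the irradiated libraries. Notch2 (chromosome 3, 98013527 to 98150361, 34 exons in its longest coding transcript) was at 65.1 and 60.0 CPM in irradiated A and B, against 30.7 and 30.3 CPM in unirradiated A and B. Notch3 (chromosome 17, 32120820 to 32166880, 33 exons) was at 118 and 111 CPM in irradiated and 65.5 and 60.0 CPM in unirradiated libraries. For both receptors the groups did not overlap, as for 82.5% of all tested genes, and the gap between the groups exceeded the spread within either. Of all called genes, 30.38% changed by more than Notch2 and 37.23% by more than Notch3 in either direction. The log2 fold changes were 1.03 for Notch2 (SE 0.0768, adjusted p = 8.79e-19, edgeR) and 0.86 for Notch3 (SE 0.0612, adjusted p = 1.02e-19, edgeR). Their adjusted p against a change of at least 1.5-fold was 2.52e-07 and 2.24e-05, a test that 12.7% of all genes passed in this direction. Of 7 pericyte markers, a cell type that expresses Notch3, 3 were higher and 0 lower, with sums of 202 and 210.3 CPM in irradiated and 165 and 158 CPM in unirradiated A and B. The log2 fold changes of the 3 were 0.64 for Rgs5, 0.54 for Cspg4 and 0.29 for Mcam, while Abcc9 (0.18), Des (0.08), Kcnj8 (-0.17) and Higd1b (-0.45) were not called.

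Notch1 (chromosome 2, 26457903 to 26516663, 34 exons) was at 176 and 155 CPM in irradiated A and B, against 184 and 189.6 CPM in unirradiated A and B. The groups did not overlap, as for 82.5% of all tested genes, but the gap between them was smaller than the gap within the irradiated pair. The log2 fold change was -0.18 (SE 0.0514, adjusted p = 0.00177, edgeR), and this call rested on irradiated B, without which it was -0.08 (adjusted p = 0.244, edgeR). DESeq2 gave -0.14 (adjusted p = 0.0919), whereas removal of the length and GC trend gave -0.46 (adjusted p = 6.46e-12, edgeR). Notch4, the endothelial receptor (chromosome 17, 34564268 to 34588503), was at 10.7 and 12.9 CPM in irradiated and 13.1 and 10.2 CPM in unirradiated libraries. The groups overlapped, and the log2 fold change was 0.02 with a 95% interval from -0.27 to 0.30 (adjusted p = 0.924, edgeR).

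**Figure D2:**
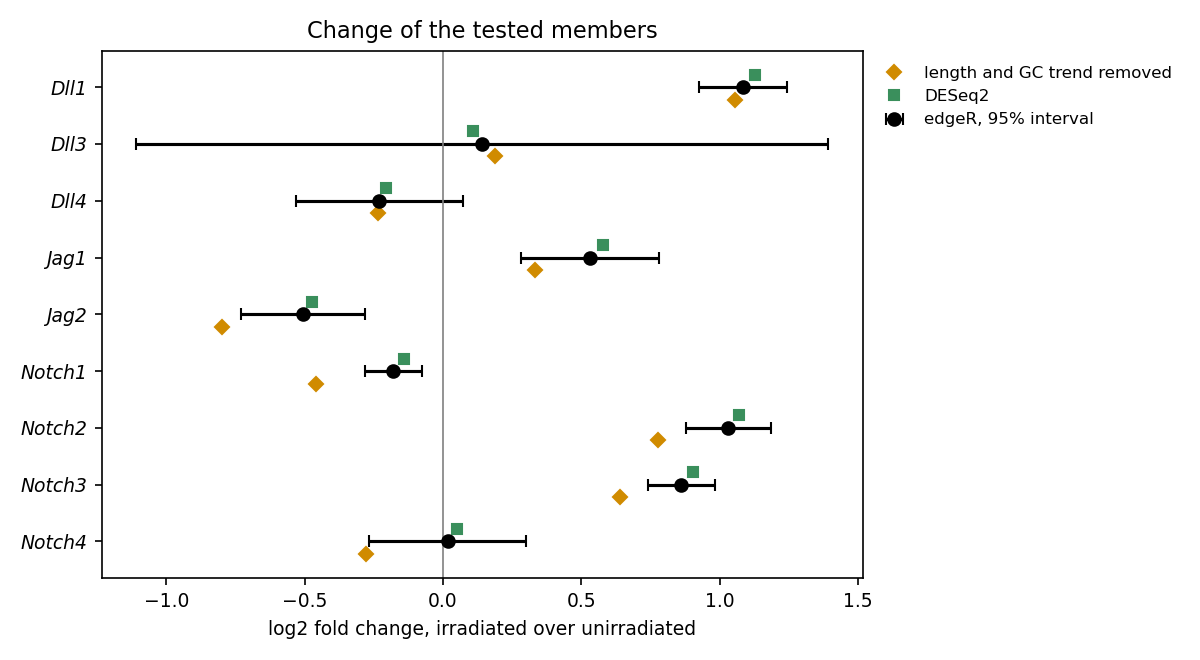
Log2 fold change of the 9 tested members, irradiated over unirradiated, from edgeR (black, with 95% interval), from DESeq2 (green) and from edgeR with the length and GC trend removed (amber). Dll1, Notch2, Notch3 and Jag1 lie right of 0 and Jag2 and Notch1 left of it in all 3 fits, while Notch4 changes side.

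Transcript GC content had a median of 57.1% over the 9 tested members and 49.9% over all tested genes, and gene length a median of 6965 against 3946 bases. Removal of the trend left Dll1 at 1.06 and lowered Notch2 to 0.78 and Notch3 to 0.64, all still past the threshold, and took Notch4 to -0.28 (adjusted p = 0.0842, edgeR). The lowest GC content among the tested members was that of Jag1, at 48.8%, and the highest that of Jag2, at 61.9%.

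Expressed per kilobase of the deposited gene length, the order of the levels differed between the groups. In the irradiated group Dll1 and Notch3 led at 14.4 ± 0.119 and 14.3 ± 0.645 CPM per kilobase (SD, n = 2), and the ranges of these 2 genes overlapped. Notch1 followed at 11.6 ± 1.02, Notch2 at 5.80 ± 0.333, Jag1 at 3.13 ± 0.369, Dll4 at 2.29 ± 0.125, Jag2 at 2.11 ± 0.0130 and Notch4 at 1.47 ± 0.194 CPM per kilobase. In the unirradiated group Notch1 led at 13.1 ± 0.267, followed by Notch3 at 7.80 ± 0.481 and Dll1 at 6.72 ± 0.958 CPM per kilobase. Jag2 came next at 3.00 ± 0.0829, then Notch2 at 2.83 ± 0.0265 and Dll4 at 2.72 ± 0.140, whose ranges overlapped, then Jag1 at 2.15 ± 0.101 and Notch4 at 1.45 ± 0.257 CPM per kilobase. Dll3 and Dlk1 were last in both groups, with levels of 0.194 and 0.0552 CPM per kilobase in the irradiated and 0.188 and 0.0990 CPM per kilobase in the unirradiated group. Their ranges overlapped in the unirradiated libraries. The deposited length of Notch1 is 14232 bases, against 9488 bases for its longest coding transcript in GENCODE M21. With coding transcript lengths the order at the top was less clear. In the irradiated group Notch1 was at 18.5 and 16.4 and Dll1 at 16.9 and 17.1 CPM per kilobase in A and B, so their ranges overlapped, and Notch3 followed at 14.8 and 13.9. In the unirradiated group Notch1 led at 19.4 and 19.98 CPM per kilobase in A and B, and the ranges of Dll1, at 8.71 and 7.12, and Notch3, at 8.17 and 7.49, overlapped.

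Dll1 made up 64.3% and 65.9% of the summed CPM per kilobase of the 5 canonical ligands in irradiated A and B, against 49.0% and 41.8% in unirradiated A and B. Its share was above that of any other ligand in every library. Jag2 held 9.50% and 9.54% in irradiated and 19.5% and 21.2% in unirradiated libraries, and Dll4 held 9.89% and 10.8% against 17.3% and 19.5%. The share of Jag1 overlapped between the groups, at 15.3% and 13.1% against 13.8% and 15.4%. The summed ligand level was 22.1 ± 0.191 in the irradiated and 14.8 ± 0.460 CPM per kilobase in the unirradiated group (SD, n = 2), a ratio of 1.498.

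The make-up of the receptors also differed. Notch1 held 35.9% and 34.2% of the summed receptor level in irradiated and 50.7% and 53.6% in unirradiated libraries, and Notch3 held 42.8% and 43.3% against 31.9% and 30.0%. Notch2 held 17.5% and 17.5% in irradiated against 11.1% and 11.3% in unirradiated libraries, and Notch4 was at or below 6.37% in every library. Summed receptor levels were 33.2 ± 1.80 CPM per kilobase in the irradiated and 25.2 ± 0.495 CPM per kilobase in the unirradiated group. The choice of length turned the order of Notch1 and Notch3 in the irradiated libraries. With coding transcript lengths Notch1 had the highest share in every library, at 45.1% and 43.2% in irradiated and 59.8% and 62.6% in unirradiated libraries, and Notch3 had 35.9% and 36.6% in irradiated and 25.1% and 23.5% in unirradiated libraries. With 2 libraries against 2 no exact permutation test of such shares can reach 0.05, and none was made.

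**Figure D3:**
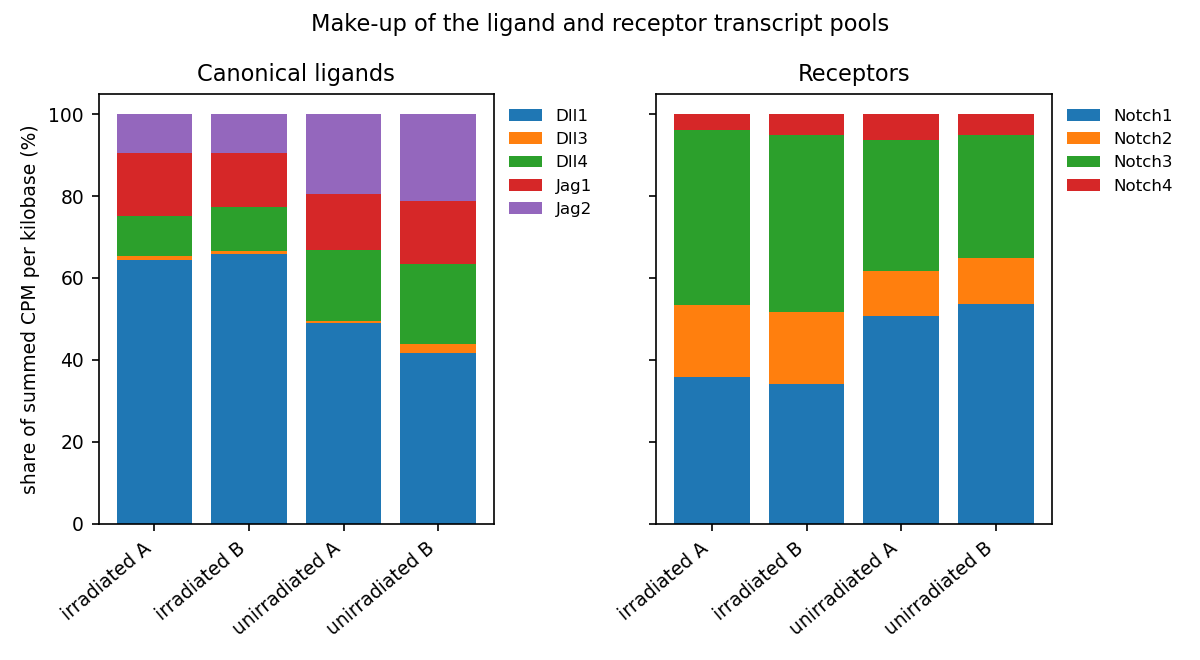
Share in percent of each gene in the summed CPM per kilobase of the 5 canonical ligands (left) and the 4 receptors (right), by library, with irradiated libraries left of unirradiated ones. Dll1 is at or above 64.3% of the ligand pool in both irradiated libraries and at or below 49.0% in both unirradiated ones.

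The other genes of the pathway were read from 6 lists of 63 names, of which 58 genes were tested, 30 were higher and 12 lower. Their median log2 fold change was 0.22. Over all tested genes 66.4% were called, 33.9% higher and 32.5% lower, and the counts of each list below are to be read beside those shares. Of the 14 genes that prepare ligand and receptor 7 were higher and 2 lower. Neurl1a and Neurl1b, homologues of the ubiquitin ligase Neuralized that in Drosophila promotes ligand endocytosis, had log2 fold changes of 2.25 and 0.96, and Adam10, the sheddase that cuts ligand-bound Notch, of 0.64. Mib2, a ubiquitin ligase of Notch ligands, had a value of -0.75. Neurl1a was at 1.80 and 2.66 CPM in irradiated and 0.418 and 0.566 CPM in unirradiated libraries. Of 9 glycosyltransferases that modify the EGF repeats of Notch 4 were higher and 1 lower, led by Xxylt1 (0.96), Pofut1 (0.78), Gxylt1 (0.51) and Poglut1 (0.44). The value of Gxylt1 was 0.29 without unirradiated A, still called. Pofut1 adds the O-fucose that Fringe enzymes extend. Of the Fringe genes Lfng, which was not called, was at 8.96 and 9.24 CPM in irradiated and 9.78 and 8.25 CPM in unirradiated libraries. Rfng, the 1 lower gene of this list (-0.25, adjusted p = 0.0102, edgeR), was at 33.4 and 32.1 against 34.9 and 43.45 CPM. Mfng (0.50) was not called.

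Of 12 genes of the nuclear complex 7 were higher and 3 lower. The Mastermind co-activators split, with Maml1 at 0.76 and Maml2 at 0.64 but Maml3 at -0.69, and the co-repressor gene Cir1 was at -0.77. Rbpj itself was at 69.8 and 62.5 CPM in irradiated and 55.8 and 58.3 CPM in unirradiated libraries. Of 11 genes of receptor turnover 6 were higher and 3 lower. Among them Dtx4 (1.08), the ubiquitin ligase gene Itch (0.66) and Numbl (0.46) rose and Dtx1 fell (-0.90). Of the 10 names of other proteins described as ligands 6 genes were tested, and 4 were higher and 0 lower: Mfap5 (1.24), Nov (1.23), Thbs2 (1.15) and Egfl7 (0.53). The call of Egfl7 was lost without unirradiated B, where its value was 0.36, and its value was 0.81 without unirradiated A. Mfap5 and Thbs2 encode matrix proteins of connective tissue, and Egfl7 is known from endothelium.

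The best-known transcriptional target of the pathway went the other way from most ligands and receptors that moved. Hes1 was at 155 and 158 CPM in irradiated A and B, against 416 and 398 CPM in unirradiated A and B. Its log2 fold change was -1.38 (SE 0.0456, adjusted p = 8.40e-37, edgeR), and it stayed between -1.43 and -1.18 in every alternative fit. Heyl rose, at 3.85 and 4.04 CPM in irradiated and 1.19 and 2.18 CPM in unirradiated libraries, as did Nrarp, at 7.04 and 8.92 against 4.83 and 5.34 CPM. Hey1 was called lower by 0.14 on the log2 scale, a call lost in 8 of its 13 alternatives. The sizes of the changes of Nrarp and Heyl moved when single libraries were left out. Nrarp lost its call without irradiated B, with a log2 fold change of 0.49, and without unirradiated A that of Heyl was 0.86, still called. Of the 7 genes of this list 6 were tested, 2 were higher and 3 lower. The third lower gene was Hes7, whose mean level was too low for the naming rule and which is named here after its value was seen, at -1.79 (SE 0.502). It rested on 17 counts over the irradiated and 42 over the unirradiated libraries. Its levels were 0.481 and 0.363 CPM in irradiated A and B, against 1.85 and 0.89 CPM in unirradiated A and B, an uneven pair.

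**Figure D4:**
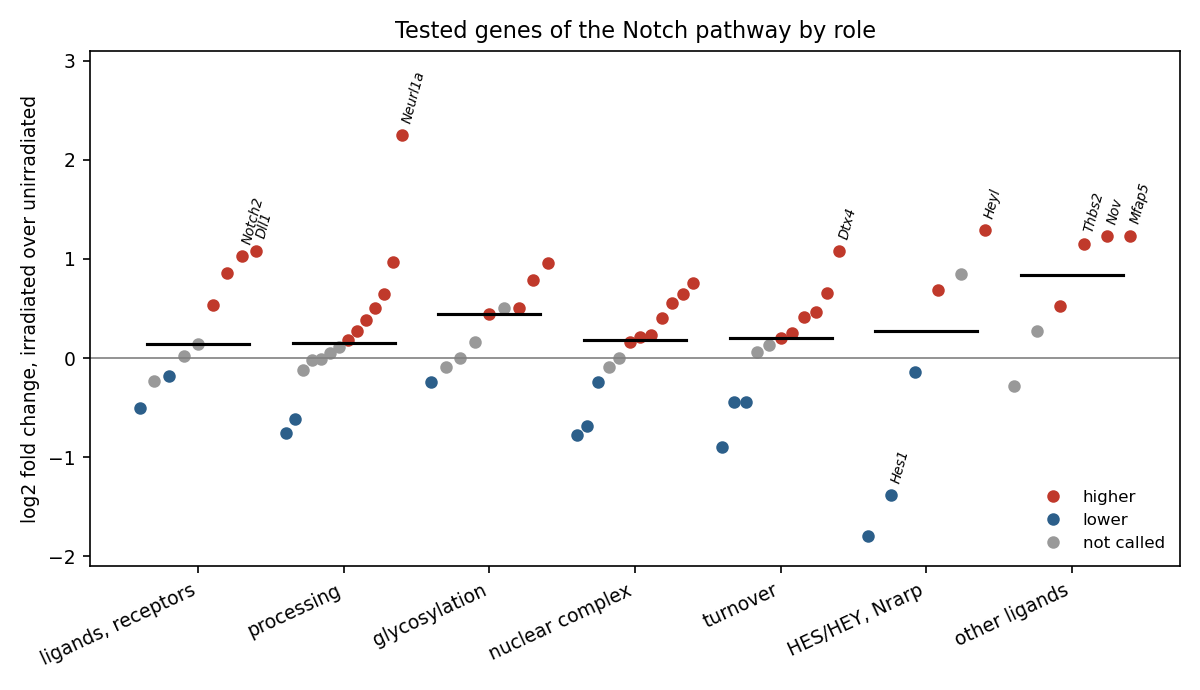
Log2 fold change, irradiated over unirradiated, of each tested gene, by role in the Notch pathway; red points were called higher, blue lower and grey not called, and black bars are medians. Hes1 at -1.38 is the lowest of the labelled genes, with Hes7 at -1.79 the unlabelled point below it, and Neurl1a at 2.25 is the highest.

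The genes whose pattern over the 4 libraries was nearest to that of Dll1, among 10844 genes whose mean level reached 5 CPM, were the chemokine gene Ccl4, Mfap3l and Zc3h12a, which encodes an RNase that degrades cytokine transcripts. Their centred log2 CPM differed from that of Dll1 by a root mean square of 0.0208, 0.0280 and 0.0323, and 17 genes were within 0.05. Nearest to Notch2 were Slc23a2, Btbd3 and Il6st, the shared receptor of the IL-6 family, and nearest to Notch3 were Ddx19b, Agpat3 and Tesk1, with 68 and 74 genes within 0.05. Nearest to Jag1 were Ccl9, Atl3 and Mmp12, and nearest to Jag2 were Zcchc17, Dennd6b and St3gal5. Nearest to Notch1 were Dock1, Slc25a13 and Utp23, and nearest to Dll4 were Eapp, Qpctl and Frg1. Notch4 had Cenpo, Trub1 and Lyplal1 as its nearest genes, with 3 within 0.05, and Dll3 had Fen1, Chst14 and Mctp2, with 0 within 0.05. These distances rest on 4 libraries in 2 groups and describe only similar level differences between them.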

How the data were processed

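Poly(A) RNA was sequenced without strand information, per the labels' protocols. The tools STAR 2.5, HTSeq 0.6.1 and DESeq2 and the build mm10 are named in the submitters' processing notes, with settings not given in the sources used here. Each library's table, as deposited, holds raw whole-number counts per gene. Genes were filtered with filterByExpr, scaled by TMM and tested with the quasi-likelihood test of edgeR 4.0.16 (non-legacy dispersion, R 4.3.3) over 15961 genes with Benjamini-Hochberg adjustment and a threshold of 0.05. Dividing the size of a log2 fold change by the root of its F statistic gave its SE. The fit had 2 residual and 60.0 prior degrees of freedom, which set the 95% intervals. Code was tested on simulated data. A chi-square statistic between A and B was computed for each gene with at least 20 counts in the pair. Its median was 2.14 and 2.11 times that expected from counting in irradiated and unirradiated libraries. The pairs thus differed by more than counting error and were not merged, which does not show that they are separate animals. The common biological coefficient of variation, the fitted spread between libraries beyond counting, was 3.86%. CPM per kilobase divides TMM-scaled CPM by the deposited gene length. The alternatives covered scaling (RLE, upper-quartile), DESeq2 1.42.0, a filter of 1 count over the 4 libraries or of 1 CPM in 2, a replicate block, leaving out each library and a test against 1.5-fold. Legacy dispersion, coding transcript lengths and removal of a smooth trend with gene length and GC content (mgcv 1.9.3, 99.9% of tested genes had a GC value) were added after the data were seen. Members and gene lists were chosen with earlier results of these data known. All 10 members are named, with the 4 called genes of each pathway list that changed most among those averaging 1 CPM or more, and the 3 genes nearest in pattern to each tested member. Other genes are named to describe a cell type or a role. The lymphoid marker list is not reported here. Promoter windows come from RefSeq on GRCm38.p6.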

Additional observations from a re-analysis of the deposited data

How the results depend on the processing

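Dll1, Notch2 and Notch3 kept their direction and their call in all 13 alternatives, with log2 fold changes of 0.97 to 1.255, 0.78 to 1.11 and 0.64 to 0.93. Jag1 (0.33 to 0.68) and Jag2 (-0.80 to -0.44) lost their calls when tested against 1.5-fold. Of the members, 4 were higher in every alternative except that test, where 3 were. The number lower was 1 with DESeq2, 1 with no filter on low counts, 1 to 2 with single libraries left out and 0 against 1.5-fold (edgeR), where 0 also had an unadjusted p under 0.05. The call lost was that of Notch1, and against 1.5-fold also that of Jag2, and the cause was not tested. Over all genes the test against 1.5-fold called 2032 higher and 1754 lower, and DESeq2 called 3424 lower. Of the other pathway genes, 9 were higher and 5 lower against 1.5-fold, by the construction of that test, beside 12.7% and 11.0% of all tested genes. With the length and GC trend removed 21 were higher and 14 lower, beside 29.9% and 33.7% of all tested genes. Notch4 turned to -0.027 with upper-quartile scaling, -0.0020 with the filter of 1 CPM, -0.28 without the length and GC trend, and ranged from -0.13 to 0.24 with single libraries left out. Dll3 ranged from -0.74 to 1.54 in the same way and was not tested under the filter of 1 CPM. Among the named pathway genes Neurl1b, Nrarp, Egfl7 and Hey1 lost their calls with DESeq2, and Numbl (0.24) and Hey1 (-0.05) lost theirs with the trend removed. With the letters A and B as a replicate block 5418 genes were higher and 5200 lower, and no call of a member changed. The deviations of A from B had a correlation of 0.0116 between the groups. With 1 pair of libraries per group, that value cannot exclude a shared source behind a letter, and the labels name none. Depth limits Dll3 and Dlk1, with 22 and 14 counts over the irradiated and 14 and 17 counts over the unirradiated group.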
